A study of Rattus norvegicus with 30 samples.

Results

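Rab GTPases are small switch proteins that mark the membranes of the cell and direct vesicles between them. The members were all genes whose platform symbol was Rab followed by digits and at most a letter and a further digit, so that proteins that only bind Rabs were left out. They numbered 54 of the 14506 genes named on the arrays, and a gene with several probe sets was read on the brightest of them, by the mean of the 30 arrays. A further symbol, Rab26, sits only on a probe set shared with another gene and was not used. Of the 54 genes, 49 passed the filter on dim probe sets and were tested among 11675 genes. The other 5 (Rab15, Rab27b, Rab3c, Rab40b and Rab9b) were above the 30th percentile of the array on at most 1 of the 30 arrays.

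The arrays were Affymetrix Rat Gene 1.0 ST arrays hybridised with RNA from microglia, the resident macrophages of the brain. The rats were male and 3 or 12 months old. Stroke was modelled by closing the middle cerebral artery with a filament for 75 min under 1.2% isoflurane, and microglia were taken on day 3 or day 14 from the injured (ipsilateral) and the opposite (contralateral) hemisphere. Together with a sham group at each age this gave 10 groups of 3 arrays. The 24 stroke arrays came from 12 rats, each giving both hemispheres, and no transgene or drug beyond the anaesthetic is given. The sample labels name the strain as Wistar Kyoto in their characteristics and as spontaneously hypertensive in their protocols, so the strain is not settled. The isolation of the cells and the hemisphere of the sham arrays are not given in the sources used here. The p-values against sham, like the others, use a spread shared by all 10 groups. The sham arrays are not stated to come from separate rats, so their part of that spread may be partly technical.

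A Rab is inactive when it holds GDP and active when it holds GTP. Guanine nucleotide exchange factors (GEFs) switch it on, GTPase-activating proteins (GAPs) switch it off, and the active form recruits effectors such as tethers and motors. Different Rabs mark different stations: the endoplasmic reticulum (ER) and Golgi, early and recycling endosomes, late endosomes and lysosomes, and secretory vesicles. In microglia these routes carry engulfed debris from the phagosome to the lysosome, receptors back to the surface, and cytokines out of the cell.

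Values are the authors' log2 RMA signals (RMA is a background correction, normalization and summary of the probes of a probe set), so a difference of 1 is a doubling. Differences are given ± the standard error of the fit. A gene is called, and said to rise or fall, where limma's test with Benjamini-Hochberg adjustment over the 11675 genes gave an adjusted p under 0.05. Shares of all genes rising or falling are for these calls on the deposited values. None is given for counts after quantile normalization of the arrays or by unadjusted p. Levels of different genes were not set against each other, because each probe set has its own brightness.

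The stretches of DNA before the start of 3 members are shown because of how these genes moved: Rab7b had the largest rise on day 14, Rab32 rose in all 4 hemisphere comparisons, and Rab30 had the largest fall. They come from the RefSeq windows of the 250 bases before a transcript start (rat build GRCr8), 5′ to 3′ on the gene's strand. They lie at chr13:45673195-45673395 (plus strand), chr1:6781259-6781508 (minus strand) and chr1:156215887-156216136 (plus strand), each ending just before the outermost start of its gene. For Rab7b the 49 bases of the window past that start are left off, which leaves 201. Capitals mark the letters GAGGAA on either strand, a hexamer found in binding sites of PU.1, a transcription factor of myeloid cells.
Rab7b: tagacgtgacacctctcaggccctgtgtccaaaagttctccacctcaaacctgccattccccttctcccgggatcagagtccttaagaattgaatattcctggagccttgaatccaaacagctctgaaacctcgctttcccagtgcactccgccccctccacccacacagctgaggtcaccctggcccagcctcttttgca
Rab32: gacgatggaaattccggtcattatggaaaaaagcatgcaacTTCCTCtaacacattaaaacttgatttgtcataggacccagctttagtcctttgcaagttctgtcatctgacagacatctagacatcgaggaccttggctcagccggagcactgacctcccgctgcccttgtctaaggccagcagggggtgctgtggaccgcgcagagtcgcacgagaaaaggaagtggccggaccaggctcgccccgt
Rab30: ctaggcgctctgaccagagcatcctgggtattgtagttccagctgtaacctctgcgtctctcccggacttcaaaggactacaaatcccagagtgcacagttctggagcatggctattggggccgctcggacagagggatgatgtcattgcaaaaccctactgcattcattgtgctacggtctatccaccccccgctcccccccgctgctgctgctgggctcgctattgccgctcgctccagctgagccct
The hexamer occurs once before Rab32, on the other strand, and not in these stretches of Rab7b and Rab30. RefSeq gave a window for 45 of the 54 genes. In 24 of them, Rab13 among these, the window ends past the outermost start of the gene, so that part or all of it lies within the gene. Of the other 21 windows, 6 held GAGGAA (28.6%), beside 23.2% of the 19036 windows of all genes that end at the outermost start. CACGTG, an E-box that lysosomal regulators such as TFEB can bind, was in 1 of the 21 and in 5% of the 19036. None of the 3 stretches printed here holds CACGTG. A match of letters does not show that a factor binds there.

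Between the injured and the opposite hemisphere, 26 of the 49 tested Rab genes changed in at least 1 of the 4 comparisons (3 and 12 months, day 3 and day 14). No Rab gene rose in one and fell in another: 16 rose only, and 10 fell only. Among all genes tested, only 84 of 11675 had calls in opposite directions, so such genes were rare outside the family as well. Rab1b, Rab7b, Rab8b, Rab9a, Rab10, Rab13, Rab14, Rab32 and Rab34 rose in all 4 comparisons, which is 9 of 49 members or 18.4%, beside 4.87% of all genes. None fell in all 4, beside 2.11% of all genes. The remaining 23 members (46.9%, beside 56.5% of all genes) were called in none, and their differences lay between -0.33 and 0.31.

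At 3 months, 9 members rose and 6 fell on day 3, beside 11.5% of all genes higher and 8.95% lower. On day 14, 15 rose and 4 fell, beside 13.2% and 7.09%. At 12 months, 13 rose and 5 fell on day 3, beside 18.7% and 10% of all genes. After quantile normalization between arrays that split was 8 higher and 7 lower. On day 14, 10 rose and 4 fell, beside 10.9% and 5.94%. The median difference over the 49 members was 0.02 and 0.01 on days 3 and 14 at 3 months, and 0.09 and 0.02 at 12 months. The median of all genes was -0.01 in each of the 4 comparisons. The family as a whole therefore stayed centred near 0, with members on both sides. The median absolute difference of the 49 members was 0.18 and 0.20 at 3 months, and 0.21 and 0.18 at 12 months. Over all genes it was 0.13 and 0.15, and 0.17 and 0.13.

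**Figure D1:**
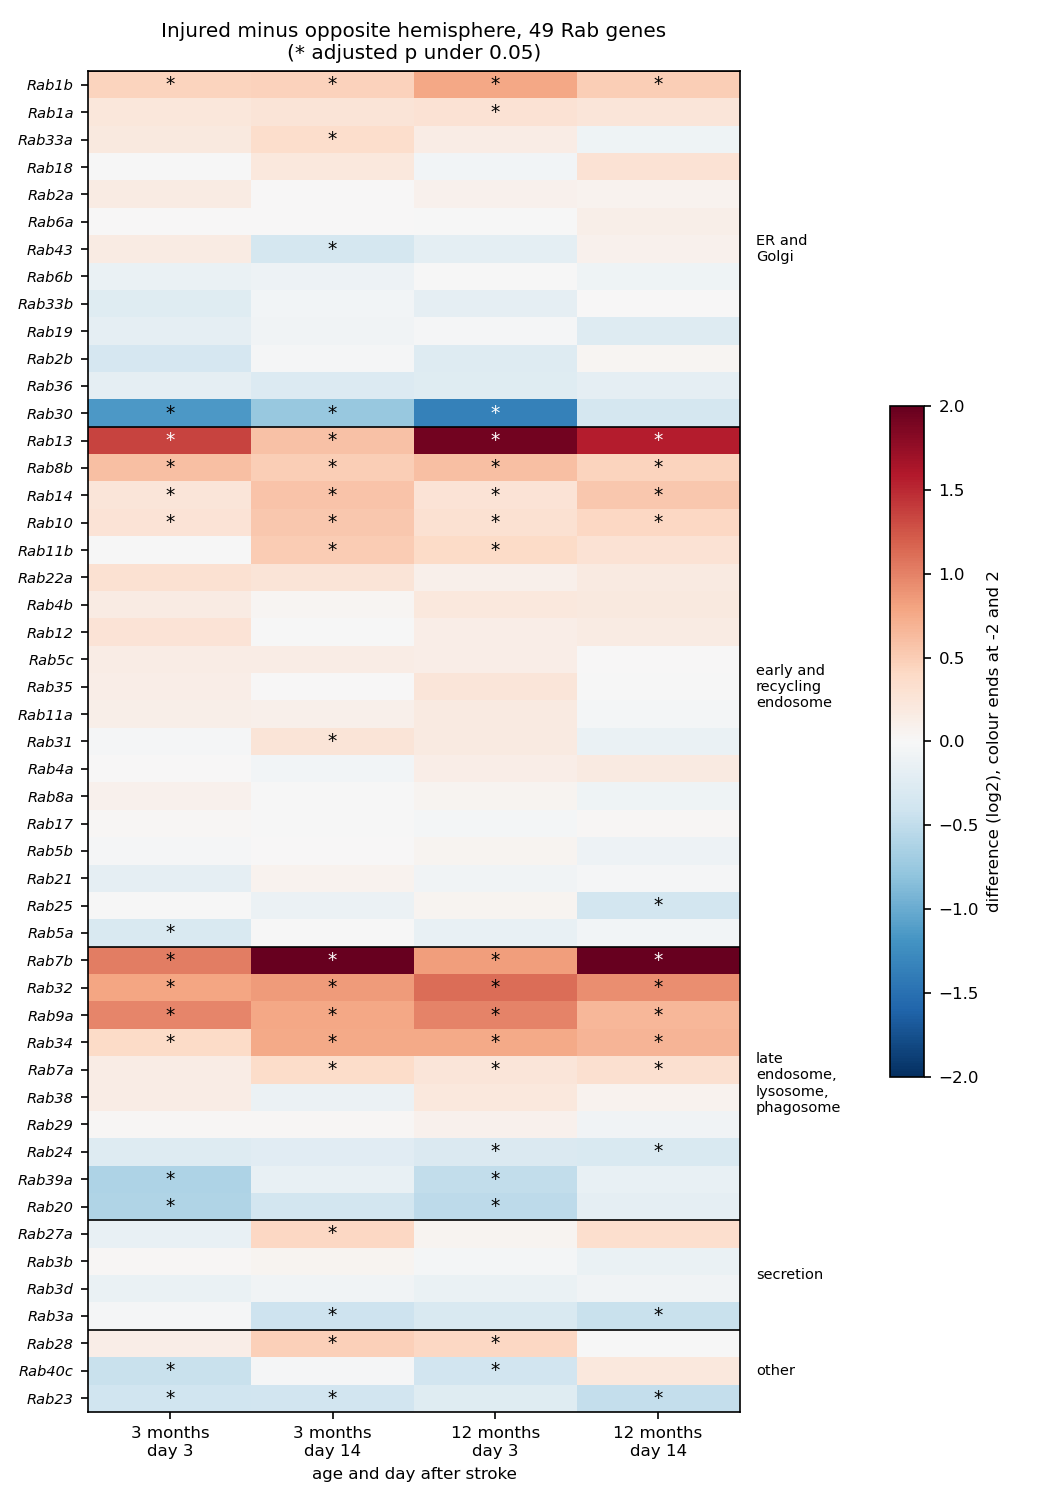
Difference (colour, log2) between the injured and the opposite hemisphere for the 49 tested Rab genes, with 3 arrays a group. Red is higher in the injured hemisphere and blue lower. Rows are genes, grouped by the membrane assigned to each here, and columns are the 4 comparisons. Asterisks mark calls; the 9 rows with 4 asterisks are all red, and Rab7b at day 14 (2.66 and 3.23) runs past the end of the colour scale at 2.

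These are RNA levels of bulk samples, in which fewer cells of a type and less RNA per cell cannot be told apart. Levels of cell type markers moved with the comparisons, and whether the mix of cells did was not tested. Of all genes, 11.5% rose and 8.95% fell at 3 months on day 3, and 13.2% and 7.09% on day 14. At 12 months the shares were 18.7% and 10% on day 3, and 10.9% and 5.94% on day 14. Of 13 microglia markers, 8 fell on day 3 and 7 on day 14 at each age. All 13 were above the 30th percentile on all 30 arrays. Their summed level stayed between 14.27 and 14.97 on the log2 scale in every array. Within each comparison it was lower on the injured than on the opposite arrays, without overlap. At 3 months the injured arrays read 14.29 to 14.52 on day 3, against 14.71 to 14.78 opposite. On day 14 they read 14.27 to 14.42, against 14.52 to 14.58. At 12 months they read 14.57 to 14.67 on day 3, against 14.84 to 14.97. On day 14 the ranges were 14.41 to 14.54 and 14.79 to 14.87. Of 15 markers of infiltrating monocytes and macrophages, 15 rose at 3 months on day 3 and 13 at 12 months on day 3. On day 14, 7 rose and 1 fell at each age. Their summed level ran from 11.44 to 11.79 on the opposite arrays, from 12.31 to 12.94 on the injured arrays of day 3, and from 11.71 to 12.32 on those of day 14. Of 7 markers of border-associated macrophages, 6 rose on day 3 at 3 months and 7 at 12 months, and on day 14, 3 rose and 1 fell at each age. Of 14 neutrophil markers, 5 rose at 3 months on day 3 and 1 at 12 months on day 3. Unlike the microglia markers, some of the others exceeded the 30th percentile on only part of the 30 arrays. Among these, Cxcr2 did so on 4, Mmp8 on 8, Mmp9 and F13a1 on 10 and Ms4a7 on 15. Such markers were tested only through the arrays where they were high, so a rise of theirs would be partly set by the filter. No Rab gene is on these lists, and their part in the Rab differences was not tested.

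Members of the late endosome, lysosome and phagosome moved both ways. Of the 10 tested, 4 rose and 2 fell at 3 months on day 3, beside 11.5% of all genes higher and 8.95% lower, and 5 rose and none fell on day 14, beside 13.2% and 7.09%. At 12 months, 5 rose and 3 fell on day 3, beside 18.7% and 10%, and 5 rose and 1 fell on day 14, beside 10.9% and 5.94%. The median differences of these members were 0.15, 0.20, 0.23 and 0.20 in that order. Those that rose are known for the route to the lysosome and back to the Golgi (Rab7b, Rab9a, Rab7a), for lysosome-related organelles (Rab32) and for lysosome position (Rab34). Those that fell are linked to phagosome maturation (Rab20, Rab39a) and to autophagy (Rab24).

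Rab7b, which carries cargo from late endosomes to the Golgi and has been linked to the turnover of Toll-like receptors in macrophages, had the largest difference of any member. At 3 months its sham arrays read 5.64, 5.78 and 5.67, the opposite arrays 5.95, 5.76 and 6.22 on day 3 and 5.89, 6.39 and 6.42 on day 14. The injured arrays read 7.50, 6.89 and 6.61 on day 3 and 8.99, 8.88 and 8.80 on day 14. Every injured array was above every sham and opposite array, and the day 14 arrays stood well above those of day 3. At 12 months the sham arrays read 5.37, 4.98 and 5.37, and the opposite arrays 5.71, 5.60 and 5.56 on day 3 and 5.73, 6.11 and 5.84 on day 14. Readings of the injured arrays were 6.48, 6.28 and 6.61 on day 3 and 8.96, 9.18 and 9.24 on day 14. The same order held at this age, again with no overlap. At 3 months Rab7b rose by 1.03 ± 0.16 on day 3, a 2.04-fold difference with an adjusted p of 2.51e-05 from limma, and by 2.66 ± 0.16 or 6.31-fold on day 14 (adjusted p = 5.5e-13). At 12 months it rose by 0.83 ± 0.16 or 1.78-fold on day 3 (adjusted p = 0.000236 from limma), and by 3.23 ± 0.16 or 9.41-fold on day 14 (adjusted p = 6.56e-15).

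Rab7a, the general Rab of fusion between late endosomes and lysosomes, moved far less than its near namesake. Its injured arrays read 10.31, 10.19 and 10.09 against 9.94, 9.69 and 9.86 opposite at 3 months on day 14, and they did not overlap. It rose by 0.37 at 3 months on day 14, by 0.24 at 12 months on day 3 and by 0.32 at 12 months on day 14. On day 3 at 3 months its difference was 0.15, which was not called.

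Rab9a returns sorting receptors from late endosomes to the Golgi. At 3 months its opposite arrays read 7.07, 6.56 and 6.81 on day 3 and 6.75, 6.92 and 6.54 on day 14. The injured arrays read 7.93, 7.73 and 7.72 on day 3 and 7.56, 7.57 and 7.41 on day 14. The hemispheres did not overlap on either day, while the sham arrays (7.57, 7.43 and 7.31) stood between them on day 3. At 12 months the opposite arrays read 7.24, 7.21 and 7.27 on day 3 and 6.60, 7.00 and 6.98 on day 14, with sham at 6.99, 7.14 and 7.28. On the injured side they were 8.33, 8.20 and 8.16 on day 3 and 7.78, 7.11 and 7.69 on day 14. Injured replicate 2 of day 14 came near the opposite arrays without overlap. Rab9a rose by 0.98 and 0.78 at 3 months and by 0.99 and 0.66 at 12 months on days 3 and 14, each ± 0.14.

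Rab32 serves lysosome-related organelles and the defence of macrophages against engulfed microbes. At 3 months its opposite arrays read 7.00, 6.68 and 7.05 on day 3 and 6.55, 6.58 and 6.62 on day 14, and the injured arrays 7.90, 7.59 and 7.61 and then 7.44, 7.39 and 7.49. At 12 months the opposite arrays read 6.92, 6.67 and 6.59 on day 3 and 6.76, 6.52 and 6.63 on day 14, and the injured arrays 7.97, 7.68 and 7.87 and then 7.61, 7.52 and 7.59. No injured array overlapped an opposite array in any of the 4 comparisons. The sham arrays lay below every injured array of their age, at 6.60, 6.63 and 6.91 at 3 months and 6.74, 6.77 and 6.71 at 12 months. Rab32 rose by 0.79 and 0.86 at 3 months and by 1.11 and 0.94 at 12 months, each ± 0.11, with adjusted p between 2.88e-09 and 2.35e-06 from limma.

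Rab34, which positions lysosomes and takes part in phagosome maturation, rose by 0.38 and 0.75 at 3 months and by 0.76 and 0.69 at 12 months, each ± 0.13. On day 3 at 3 months 1 of its opposite arrays (5.60) was above 1 of the injured arrays (5.53). That call (adjusted p = 0.0312 from limma) ended in 5 of 14 alternatives: the fit to the compared arrays alone, and without opposite replicates 1 or 2 or injured replicates 1 or 3. The highest adjusted p among them was 0.136.

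Rab39a and Rab20, both linked to the acidification and maturation of phagosomes, fell on day 3 at both ages. Rab39a read 6.70, 6.18 and 6.54 on the opposite arrays and 5.63, 5.66 and 6.28 on the injured arrays of 3 months, an overlap of 1 array. At 12 months it read 7.38, 7.32 and 7.49 against 6.76, 6.96 and 7.01, with no overlap. Its fall was -0.62 ± 0.15 at 3 months and -0.49 ± 0.15 at 12 months, while on day 14 the differences were -0.15 and -0.14 and were not called. The call at 12 months ended without opposite replicate 3 (-0.44, adjusted p = 0.0512 from limma) or injured replicate 1 (-0.41, adjusted p = 0.0702). Rab20 fell by 0.60 ± 0.15 and 0.52 ± 0.15 on day 3 at 3 and 12 months, and its differences of -0.37 and -0.17 on day 14 were not called. The call of Rab20 ended at 3 months in the fit to the compared arrays (adjusted p = 0.0523 from limma) and at 12 months without injured replicate 1 (-0.44, adjusted p = 0.0555). With the rats as a fixed block, the -0.37 of Rab20 at 3 months passed the threshold (adjusted p = 0.0378 from limma). Rab24 fell by 0.29 and 0.30 at 12 months on days 3 and 14.

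Of the 19 tested members of early and recycling endosomes, 4 rose (21.1%) and 1 fell at 3 months on day 3, beside 11.5% and 8.95% of all genes, and 6 rose (31.6%) and none fell on day 14, beside 13.2% and 7.09%. At 12 months 5 rose (26.3%) and none fell on day 3, beside 18.7% and 10%, and 4 rose (21.1%) and 1 fell on day 14, beside 10.9% and 5.94%. Rab13, Rab8b, Rab14 and Rab10, counted in this group though linked to traffic to the cell surface as well, rose in all 4 comparisons. The Rab5 genes of the early endosome and the Rab4 genes of rapid recycling were not called higher in any of the 4. Rab5c gave 0.15 and 0.15 at 3 months on days 3 and 14, and 0.13 and 0.01 at 12 months. Its second, dimmer probe set gave 0.04, 0.25, 0.29 and 0.09 in that order.

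Rab13 sends vesicles to the cell surface and is known from tight junctions and cell migration. At 3 months its sham arrays read 5.64, 5.48 and 5.67, and the opposite arrays 5.80, 5.82 and 5.93 on day 3 and 5.61, 6.51 and 5.67 on day 14. The injured arrays read 7.36, 7.08 and 7.19 on day 3 and 6.52, 6.53 and 6.49 on day 14. On day 14 opposite replicate 2 stood apart from its own group and reached the injured arrays, so the groups overlapped there and not on day 3. At 12 months the sham arrays read 5.69, 5.43 and 5.67, and the opposite arrays 5.86, 5.73 and 6.04 on day 3 and 5.44, 5.59 and 5.59 on day 14. On the injured side they were 7.84, 7.85 and 7.75 on day 3 and 7.34, 6.87 and 7.15 on day 14. All 6 injured arrays of this age were above every other array of it.

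At 3 months Rab13 rose by 1.36 ± 0.15 or 2.56-fold on day 3 (adjusted p = 6.76e-08 from limma) and by 0.58 ± 0.15 on day 14 (adjusted p = 0.00485). The second of these calls ended in the fit to the 6 compared arrays (adjusted p = 0.0771 from limma) and without opposite replicate 1, which leaves the high replicate 2 with more weight (difference 0.42, adjusted p = 0.0559). The 3 opposite arrays of 3 months and day 14 also spread most in the summed level of 7 astrocyte markers, from 7.80 to 9.17, and of 9 neuron markers, from 7.92 to 8.29. The part of these markers in the Rab13 value was not tested. At 12 months Rab13 rose by 1.94 ± 0.15 or 3.83-fold on day 3 (adjusted p = 3.36e-11 from limma) and by 1.58 ± 0.15 or 2.99-fold on day 14 (adjusted p = 3.36e-09).

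**Figure D2:**
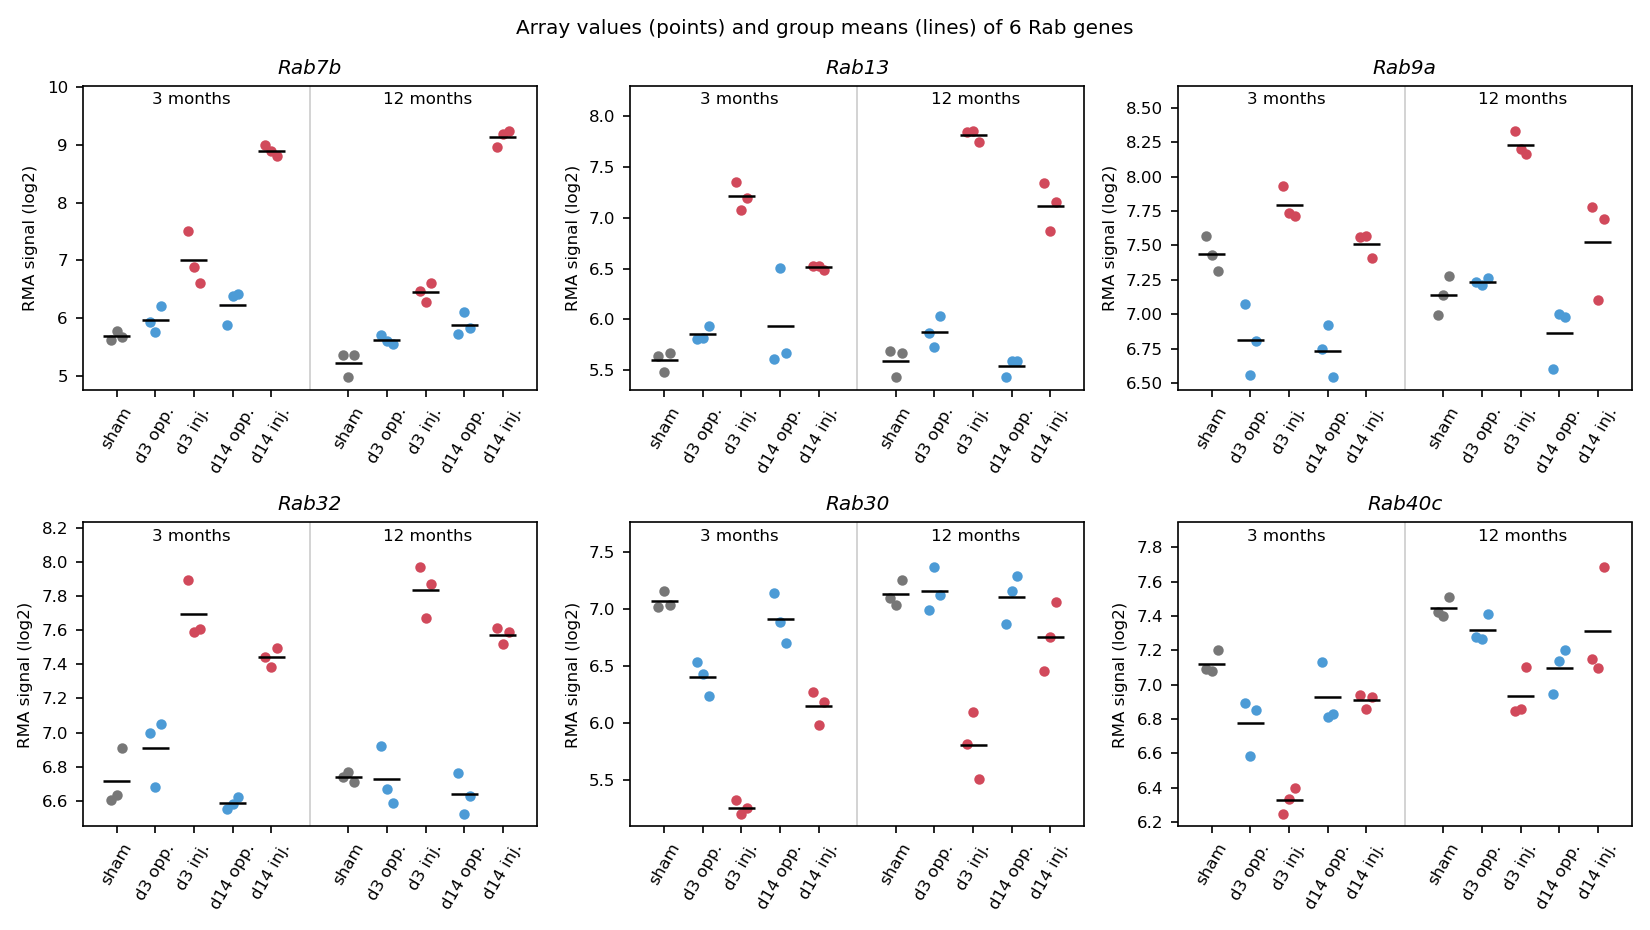
RMA signal (log2, vertical axis, scaled to each gene) of 6 Rab genes on each of the 30 arrays, by group (grey sham, blue opposite hemisphere, red injured hemisphere; d3 and d14 are days after stroke), with a line at each group mean of 3 arrays. Rab7b climbs from day 3 to day 14 in the injured hemisphere, Rab13 is lower on day 14 than on day 3 there at both ages and Rab9a at 12 months, the injured arrays of Rab32 lie above the sham arrays of their age, and Rab30 and Rab40c are low on day 3.

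Rab8b, which brings vesicles from the Golgi to the cell surface, rose by 0.60 and 0.49 at 3 months and by 0.61 and 0.45 at 12 months, each ± 0.11. Its opposite arrays lay between 8.11 and 8.56 at 3 months, and the injured arrays between 8.48 and 9.06. At 12 months they lay between 8.60 and 8.90, and between 8.93 and 9.47. Within each comparison the hemispheres did not overlap. At 3 months on day 14 the injured arrays (8.75, 8.48 and 8.73) overlapped sham (8.84, 8.84 and 8.57), and the opposite arrays (8.21, 8.15 and 8.11) were below it. On day 3 at 3 months and on both days at 12 months, every injured array was above the sham arrays of its age.

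Rab14 and Rab10, both linked to traffic between the Golgi, endosomes and the surface, rose in smaller steps. Rab14 rose by 0.24 and 0.57 at 3 months and by 0.28 and 0.54 at 12 months, each ± 0.08. Rab10 rose by 0.28 and 0.54 and by 0.31 and 0.41, each ± 0.10. On day 3 at 3 months the injured arrays of Rab10 (9.47, 9.55 and 9.48) were above the opposite arrays (9.46, 9.09 and 9.10) and below the sham arrays (9.85, 9.76 and 9.82). Rab14 showed the same order, with 9.05, 9.12 and 9.08 on the injured arrays, 8.97, 8.60 and 8.98 on the opposite arrays and 9.38, 9.37 and 9.17 in sham. Each of these day 3 calls at 3 months ended in 8 of 14 alternatives. For Rab14 these were the fixed block, quantile normalization, the smaller fits, and the fits without opposite replicate 2 or any 1 of the 3 injured arrays, and for Rab10 the same less quantile normalization and also without opposite replicate 3. Without opposite replicate 2 the difference of Rab14 was 0.11 (adjusted p = 0.365 from limma) and that of Rab10 0.22. With the rats as a fixed block the adjusted p from limma was 0.0856 for Rab14 and 0.0558 for Rab10. At 12 months on day 3, quantile normalization ended both calls (0.19 and 0.21), and the call of Rab10 also ended without opposite replicate 2 (0.21, adjusted p = 0.156 from limma) or injured replicate 3 (0.29, adjusted p = 0.065).

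Rab11b, of the slow recycling endosome, rose by 0.51 ± 0.12 at 3 months on day 14 and by 0.38 ± 0.12 at 12 months on day 3. Its other differences, 0.00 on day 3 at 3 months and 0.28 on day 14 at 12 months, were not called. The call at 12 months ended after quantile normalization (0.27) and without opposite replicate 2 (0.35) or injured replicate 3 (0.34). The value of 0.28 passed the threshold without injured replicate 2 (0.39). Rab31 rose by 0.26 at 3 months on day 14. Rab5a, which drives fusion of early endosomes, fell by 0.30 at 3 months on day 3, where its second probe set gave -0.17. Rab25, known from epithelia, fell by 0.37 at 12 months on day 14.

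Of the 13 members of the ER and Golgi, at most 2 rose and 2 fell in any comparison (15.4% each way), beside 10.9% to 18.7% of all genes higher and 5.94% to 10% lower over the 4 comparisons. The median difference lay between -0.02 and 0.04. Rab1b and Rab1a, which run transport from the ER to the Golgi, were on the rising side. Rab1b rose by 0.45, 0.46, 0.77 and 0.49 (3 months days 3 and 14, then 12 months days 3 and 14), each ± 0.12. Its second, dimmer probe set gave 0.05, 0.24, 0.58 and 0.13, smaller in every comparison, so its size is uncertain. Its calls ended at 3 months on day 3 without injured replicate 1 (0.37) and at 12 months on day 14 without opposite replicate 1 (0.33). Rab1a rose by 0.29 at 12 months on day 3, where its second, dimmer probe set gave 0.16. Rab33a rose by 0.36 at 3 months on day 14, where Rab43 fell by 0.35.

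Rab30, which keeps the Golgi intact, had the largest fall of any member. At 3 months its sham arrays read 7.02, 7.16 and 7.04, and the opposite arrays 6.54, 6.43 and 6.23 on day 3 and 7.14, 6.89 and 6.70 on day 14. The injured arrays read 5.32, 5.20 and 5.25 on day 3 and 6.27, 5.98 and 6.18 on day 14. The injured arrays were the lowest at both times, and on day 3 the opposite arrays too were below every sham array. At 12 months the sham arrays read 7.10, 7.04 and 7.25, and the opposite arrays 6.99, 7.37 and 7.13 on day 3 and 6.87, 7.16 and 7.29 on day 14. On the injured side they were 5.81, 6.10 and 5.51 on day 3 and 6.45, 6.75 and 7.06 on day 14. By day 14 the hemispheres overlapped at this age.

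Rab30 fell by 1.15 ± 0.15 at 3 months on day 3 (adjusted p = 7.7e-07 from limma), by 0.76 ± 0.15 at 3 months on day 14 (adjusted p = 0.000254), and by 1.36 ± 0.15 at 12 months on day 3 (adjusted p = 2.24e-08). At 12 months on day 14 its difference of -0.35 ± 0.15 was not called (adjusted p = 0.104 from limma), but it passed the threshold with the rats as a fixed block (adjusted p = 0.0299), without opposite replicate 1 (-0.47) and without injured replicate 3 (-0.50).

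Among the 4 tested members of regulated secretion, none was called on day 3 at either age. The shares of all genes on that day were 11.5% higher and 8.95% lower at 3 months, and 18.7% and 10% at 12 months. By unadjusted limma p under 0.05 the counts there were 0 at 3 months and 1 at 12 months. Rab3a, the Rab of synaptic vesicles, fell on day 14 at both ages, by 0.42 ± 0.13 at 3 months and by 0.44 ± 0.13 at 12 months. Its opposite arrays on day 14 read 5.42, 5.16 and 5.45 at 3 months and 5.47, 5.46 and 5.40 at 12 months, and the injured arrays 5.13, 4.72 and 4.93 and then 4.96, 5.17 and 4.88. Neither pair of groups overlapped. Of 9 neuron markers 3 fell at 3 months on day 14 and none at 12 months on day 14, beside 7.09% and 5.94% of all genes. Their summed level at 3 months on day 14 was 7.92 to 8.29 on the opposite arrays and 7.75 to 7.79 on the injured arrays. At 12 months on day 14 it was 7.74 to 7.84 and 7.65 to 7.67. The part of these markers in the Rab3a value was not tested. Rab27a, which releases lysosome-related organelles, rose by 0.41 at 3 months on day 14.

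The 3 tested members outside these routes moved apart from each other. Rab23, known from Hedgehog signalling and cilia, fell by 0.41 and 0.38 at 3 months on days 3 and 14 and by 0.48 at 12 months on day 14. Rab28 rose by 0.48 at 3 months on day 14 and by 0.42 at 12 months on day 3. Rab40c, part of a ubiquitin ligase, fell by 0.45 ± 0.12 and 0.38 ± 0.12 on day 3 at 3 and 12 months. On day 14 its differences were -0.02 and 0.21 and were not called. The call at 12 months ended without opposite replicate 3 (-0.34) or injured replicates 1 or 2 (-0.34 each).

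Whether the hemisphere difference changed from day 3 to day 14 was tested as a difference of differences. At 3 months it was called for Rab7b (higher on day 14) and Rab13 (lower), 1 member each way beside 2.57% of all genes higher and 1.24% lower. After quantile normalization the split was 1 and 2. At 12 months it was called for Rab7b, Rab30 and Rab40c, 3 higher and none lower, beside 1.75% and 3.59% of all genes (unadjusted limma p under 0.05: 4 higher and 3 lower), and after quantile normalization 4 and 0. The gain of Rab7b was 1.63 ± 0.23 at 3 months and 2.40 ± 0.23 at 12 months. Both calls held in every alternative run.

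For Rab13 at 3 months the hemisphere difference shrank by -0.77 ± 0.21 (adjusted p = 0.0322 from limma), a call that ended in 9 of 20 alternatives: the smaller fits, the fixed block, and without opposite replicates 1 or 2 or injured replicate 1 of day 3, or opposite replicate 2 or injured replicates 1 or 3 of day 14. Without opposite replicate 2 of day 14, the high array named above, the value was -0.49 with an adjusted p of 0.0777. With the rats as a fixed block only Rab7b remained called at 3 months, and Rab13 had an adjusted p of 0.0573. At 12 months the change of Rab13 was -0.36 ± 0.21 and was not called. Rab30 gained 1.00 ± 0.21 at 12 months (adjusted p = 0.00226 from limma), since its fall of day 3 was smaller by day 14, and this call held in every alternative run. Rab40c gained 0.60 ± 0.17 at 12 months (adjusted p = 0.0312 from limma), which ended in 7 of 20 alternatives, among them the fit to the compared arrays and the fits without opposite replicates 2 or 3 or injured replicates 1 or 2 of day 3, or opposite replicate 1 of day 14. Without injured replicate 3 of day 14, which read 7.68 beside 7.15 and 7.10, the value was 0.41 (adjusted p = 0.126).

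**Figure D3:**
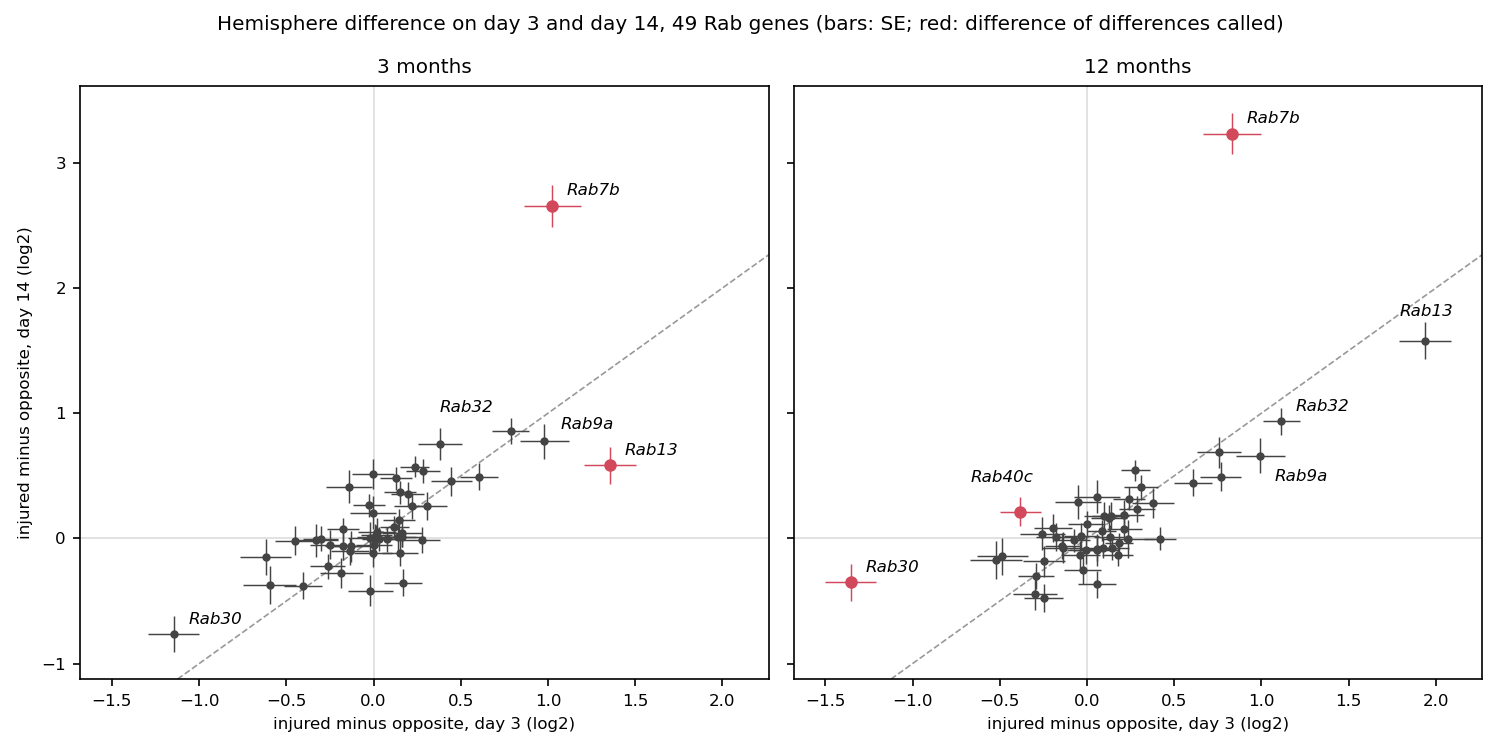
Difference between the injured and opposite hemisphere on day 3 (horizontal, log2) and on day 14 (vertical, log2) for the 49 tested Rab genes at 3 and 12 months; bars are standard errors and the dashed line marks equal differences. Red points are genes whose change between the days was called; Rab7b lies far above the line at both ages, with 1.03 and 2.66 at 3 months and 0.83 and 3.23 at 12 months.

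In the injured hemisphere itself, 16 members were higher and 2 lower on day 14 than on day 3 at 3 months, beside 22% and 7.51% of all genes, and 12 and 5 after quantile normalization. At 12 months 5 were higher and 7 lower, beside 6.53% and 14.1%, and 6 and 4 after quantile normalization. Without injured replicate 1 of day 3 the count at 12 months was 3 higher and 4 lower. Rab7b rose by 1.89 at 3 months and 2.67 at 12 months, and Rab30 by 0.89 and 0.95. Rab13 fell by 0.70 and 0.69. Rab9a fell by 0.71 at 12 months, where Rab1b fell by 0.51. Neither of these genes was called at 3 months, and the difference between the ages was not tested.

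In the opposite hemisphere, 8 members were higher and 1 lower on day 14 than on day 3 at 3 months, beside 8.31% and 1.84% of all genes, and 7 and 4 after quantile normalization. Their differences reached 0.52 (Rab3a). This count fell to 5 without opposite replicate 2 of day 3 or replicate 3 of day 14, and to 0 in the fit to the compared arrays alone. At 12 months limma called none, beside 0.137% higher and 0.925% lower (unadjusted p under 0.05: 4 higher and 3 lower). At 3 months the day comparisons cannot be told apart from a number in the sample codes that differs between the days, and the labels do not explain it. The 12-month arrays share 1 such number.

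Against sham, Rab7b, Rab13, Rab32 and Rab14 were called on both days at both ages in the injured hemisphere. Rab14 was lower than sham at 3 months on day 3 (-0.22, but 0.11 and not called after quantile normalization) and higher in the other 3 (0.33, 0.43 and 0.69). Rab7b rose by 1.31 and 3.20 at 3 months and by 1.22 and 3.89 at 12 months, and Rab13 by 1.61, 0.91, 2.22 and 1.52. Rab32 rose by 0.98, 0.73, 1.10 and 0.83. Rab30 fell by 1.82, 0.93 and 1.32 and was not called at 12 months on day 14. At 12 months 14 members rose and 8 fell on day 3, beside 22.7% and 14.3% of all genes (10 and 9 after quantile normalization). On day 14, 9 rose and none fell, beside 11.9% and 8.09% (9 and 2 after quantile normalization; unadjusted limma p under 0.05: 10 higher and 4 lower).

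At 3 months more Rab genes were called below sham than at 12 months. In the injured hemisphere 9 were higher and 26 lower on day 3, beside 20.9% and 35.9% of all genes, and 8 and 16 on day 14, beside 11% and 23.4%. In the opposite hemisphere 4 were higher and 28 lower on day 3, beside 14.4% and 37.2%, and 4 and 19 on day 14, beside 10.4% and 28.4%. The lowest differences in the opposite hemisphere were those of Rab6a (-0.85 on day 3) and Rab28 (-0.81 on day 14), and Rab6a, Rab28 and Rab9a were among those that fell on both days and kept both calls after quantile normalization. The median over the 49 members was -0.34 on day 3 and -0.19 on day 14, beside -0.10 and -0.06 for all genes. At 12 months no Rab gene differed between the opposite hemisphere and sham by limma, beside 1.16% higher and 0.128% lower on day 3, and 0.00857% and 0% on day 14. By unadjusted p under 0.05 the counts were 2 higher and 0 lower on day 3, and 3 higher and 2 lower on day 14. Rab7b had the largest of these differences, 0.39 ± 0.16 on day 3 and 0.65 ± 0.16 on day 14 (adjusted p = 0.386 and 0.362 from limma). Its opposite arrays did not overlap sham on either day, which held for 18.0% of all genes on day 3 and 15.3% on day 14.

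The falls against sham at 3 months depend on how the arrays are scaled. After quantile normalization the opposite hemisphere had 8 higher and 14 lower on day 3 and 3 higher and 8 lower on day 14, and the injured hemisphere 14 and 16, then 13 and 6. Of the 28 members called lower in the opposite hemisphere on day 3, 13 were still lower, and of the 19 on day 14, 8 were. None turned into a call of higher, though the difference of Rab14 on day 14 went from -0.25 to 0.02. Whether the family moved more than all genes under that scaling was not tested. The spread of signals on an array moved with these groups: its SD was 1.79 to 1.93 on the 3-month stroke arrays and 1.94 to 2.05 on all others. The sham arrays of 3 months also carry another code number than the stroke arrays of that age, so the difference from sham cannot be told apart from that number. Hemisphere comparisons lie within 1 number.

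**Figure D4:**
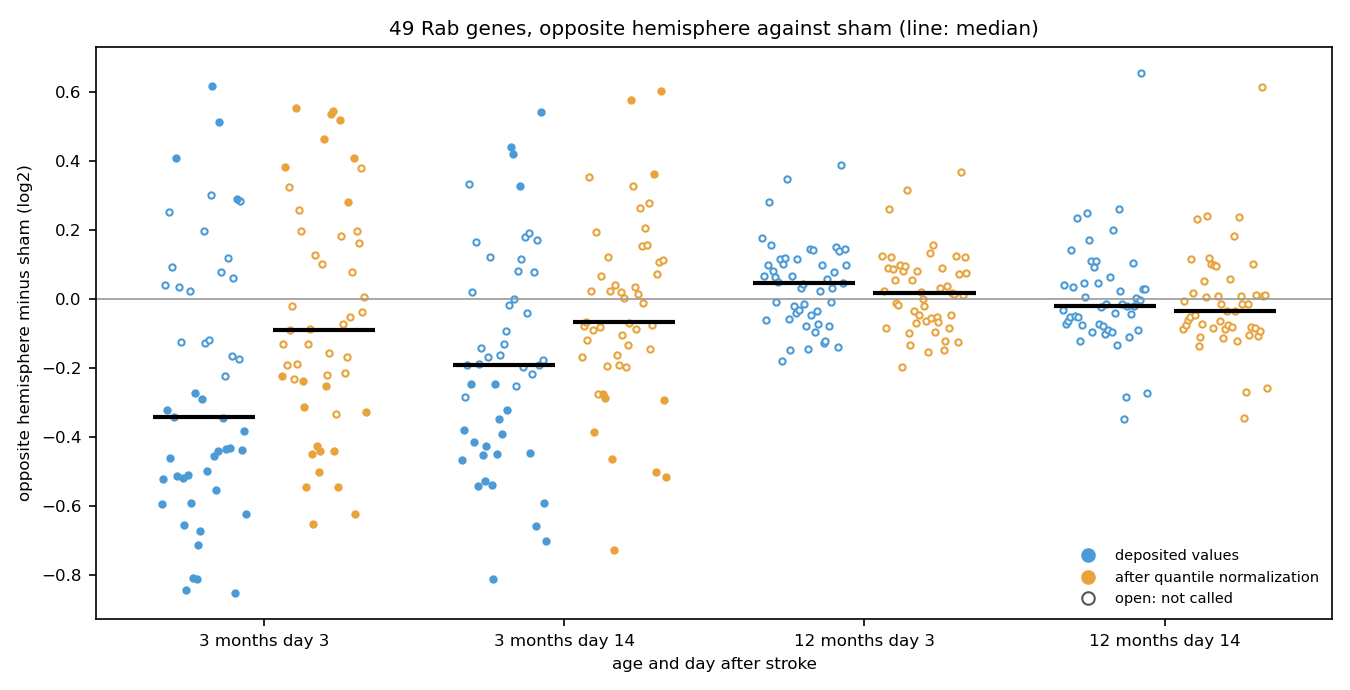
Difference between the opposite hemisphere and sham (log2) for the 49 tested Rab genes in the 4 combinations of age and day, with deposited values (blue) and after quantile normalization of the arrays (orange). Filled points are called, open points are not, and lines are medians; the medians at 3 months move from -0.34 to -0.09 on day 3, while at 12 months no point is called.

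The hemisphere difference at 12 months was not called different from that at 3 months for any Rab gene on either day. On day 3 limma called none, beside 1.42% of all genes higher at 12 months and 0.154% lower (unadjusted p under 0.05: 5 and 1 members). On day 14 it called none, beside 0% and 0.00857% (unadjusted: 3 and 3). The largest was that of Rab13 on day 14, 1.00 ± 0.21 larger at 12 months with an adjusted p of 0.0841 from limma. At 3 months on that day its opposite replicate 2 read 6.51 beside 5.61 and 5.67, which makes the 3-month difference smaller and this value larger. Leaving out opposite replicate 1 at 3 months or injured replicate 2 at 12 months on that day gave 1 call. Between the sham groups, 6 members were higher at 12 months and none lower, beside 7.47% and 5.52% of all genes (unadjusted limma p under 0.05: 9 higher and 8 lower). They were Rab35, Rab43, Rab4b, Rab34, Rab5c and Rab31, with differences from 0.34 to 0.52. That count dropped to 2 without 3-month replicate 1 or 2 or without 12-month replicate 3, and to 3 without 12-month replicate 2. The ages of the sham rats cannot be told apart from the code number.

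The partners that load, switch and carry Rabs were compared between the hemispheres too. Of 44 tested genes for prenylation, GDP dissociation inhibitors, GEFs and GAPs, 7 rose (15.9%) and 4 fell (9.09%) at 3 months on day 3, beside 11.5% and 8.95% of all genes, and 5 rose (11.4%) and none fell on day 14, beside 13.2% and 7.09%. At 12 months 10 rose (22.7%) and 6 fell (13.6%) on day 3, beside 18.7% and 10%, and 7 rose (15.9%) and 1 fell (2.27%) on day 14, beside 10.9% and 5.94%. Tbc1d2b and Tbc1d9, of the family of Rab GAPs, rose in all 4 comparisons: Tbc1d2b by 0.40, 0.97, 0.58 and 0.82 (each ± 0.14) and Tbc1d9 by 0.36, 0.56, 0.75 and 0.62 (each ± 0.11). Dennd2d, of the DENN family of GEFs, rose at 12 months by 0.42 and 0.61. Chml, an escort protein that presents new Rabs for prenylation, fell on day 3 by 0.37 ± 0.11 at 3 months and by 0.77 ± 0.11 at 12 months.

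Of 54 tested effectors and tethers, 5 rose (9.26%) and 5 fell (9.26%) at 3 months on day 3, and 9 rose (16.7%) and 2 fell (3.7%) on day 14. At 12 months 8 rose (14.8%) and 5 fell (9.26%) on day 3, and 7 rose (13%) and 2 fell (3.7%) on day 14. These shares stand beside the same shares of all genes as for the first list. Eea1, the tether of early endosomes that binds Rab5, rose by 0.43, 0.70, 0.92 and 0.52 (each ± 0.12). Myo5a, an actin motor that Rabs hook to vesicles, rose by 0.78, 0.71, 0.67 and 0.67 (each ± 0.10). Rufy3, which couples organelles to motors, rose on day 14 by 0.67 ± 0.08 at 3 months and 0.69 ± 0.08 at 12 months, and by 0.23 at 3 months on day 3. Kif20a, a kinesin found through its binding to Rab6 and active in cell division, rose on day 3 at both ages. At 3 months it rose by 0.38 ± 0.11, where its opposite arrays were all at or below the 30th percentile. At 12 months it rose by 1.36 ± 0.11. Of 15 cell cycle genes, 11 rose and 1 fell at 3 months on day 3, beside 11.5% and 8.95% of all genes. At 12 months on day 3, 14 rose and none fell, beside 18.7% and 10%. The part of the cell cycle genes in these Kif20a values was not tested.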

How the data were processed

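Microglial RNA of 30 arrays (10 groups of 3) was labelled with NuGEN kits from 50 ng, and all RNA had integrity scores above 7 per the labels' protocols. The deposited values are log2 signals of 29214 probe sets that the authors made with RMA in Affymetrix Expression Console, per the submitters' processing notes, where no version stands. No raw scans were used. Array precision is limited by the 3 arrays a group.

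Symbols came from the platform annotation, updated through RefSeq gene identifiers and accessions: 15310 probe sets had 1 symbol, 323 had several and 13581 had none listed. Probe sets had to exceed the 30th percentile of the array (4.07 to 4.35) on at least 3 arrays. limma 3.58.1 in R 4.3.3 fitted 10 group means to all 30 arrays (lmFit and eBayes), with 21 comparisons, each adjusted by Benjamini-Hochberg. Data were simulated for the injured against the opposite hemisphere at 3 months on day 3 (11675 genes, 200 changed). There the fit recovered 73% of changes of 0.5 and 100% of changes of 1 (log2). The data themselves had more called genes (1339 higher and 1045 lower), so these shares need not hold for them.

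The members and all lists were chosen with earlier results of these data known. Named were Rab genes called by at least 0.5 in a hemisphere comparison, or called in a difference of hemisphere effects, or called by at least 0.5 in the opposite hemisphere against sham at 12 months. Other called members are given with less detail. Partner genes were named as the 4 of each list with the largest called hemisphere difference.

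Sample codes show which hemispheres share a rat. Deviations of the 12 pairs from their group means correlated between -0.079 and 0.211 (consensus over genes 0.072), and the rat was a block in an alternative. Alternatives also changed the dim filter, the scaling (quantile), the probe set per gene and the arrays fitted, and left out each array in turn. No array pair held identical values, and correlations within groups were 0.987 to 0.995.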

Additional observations from a re-analysis of the deposited data

Results flagged for a closer look

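In 5 cases the hemisphere difference of a Rab gene differed between day 3 and day 14 by a test of that change within an age, with limma's adjusted p under 0.05. Rab7b gained 1.63 ± 0.23 at 3 months (adjusted p = 7.4e-05 from limma) and 2.40 ± 0.23 at 12 months (adjusted p = 7.19e-08), with all 3 injured arrays of day 14 above those of day 3 at both ages. Rab30 gained 1.00 ± 0.21 at 12 months, with all 3 injured arrays of day 14 above those of day 3. Rab13 changed by -0.77 ± 0.21 at 3 months, where 1 opposite array of day 14 stood at 6.51 beside 5.61 and 5.67. Rab40c gained 0.60 ± 0.17 at 12 months, where 1 injured array of day 14 stood at 7.68 beside 7.15 and 7.10. Groups of 3 are too small for a test of single arrays that stand apart.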

How the results depend on the processing

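No alternative run turned the direction of a called hemisphere difference of a named gene. Among differences that were not called, 5 values changed sign with 1 array left out: 3 of Rab11b at 3 months on day 3 (0.00, up to 0.11) and 2 of Rab40c at 3 months on day 14 (-0.02, up to 0.09). In the fit to the compared arrays alone the Rab calls were 9 (15 in the full fit) and 12 (19) for the hemispheres at 3 months on days 3 and 14, 0 (9) for the days in the opposite hemisphere at 3 months, 1 (2) for the change of the hemisphere difference at 3 months, and 12 (6) for age in sham. An alternative chosen after seeing the data, the fit to the arrays of 1 age, gave 3 for those days and 1 for that change. With the rat as a fixed replicate block that change had 1 call, and with the rat as a random block 3. The block moved no other count by over 1.5 times. Quantile normalization left 11 of 23 calls for the opposite hemisphere against sham at 3 months on day 14. With single arrays left out, calls ranged from 2 to 7 for age in sham, from 7 to 11 for the days in the injured hemisphere at 12 months, from 5 to 10 for the days in the opposite hemisphere at 3 months, from 1 to 4 for the change at 3 months (1 without injured replicate 1 or 3 of day 14, 4 without injured replicate 3 of day 3) and from 0 to 1 for the hemisphere difference between ages on day 14. For the named genes, 822 of 884 values under the alternatives stayed on the same side of the threshold, 55 lost the call and 7 gained it. The cause of these shifts was not tested, other than that fewer arrays entered the smaller fits. No depth is known for arrays, and 5 members were too dim to test.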
